A study of Rattus norvegicus with 12 samples.

Results

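The genes described here encode the proteins of the mitochondrial ribosome, measured in rat H9c2 cells given methylmalonic acid, folic acid or both. They were chosen by name and level, not by response: every protein-coding gene whose symbol starts with Mrpl or Mrps followed by a number, with a mean of at least 1 TPM (a share of each library's transcripts, corrected for gene length) over the 12 libraries. Among 30562 genes, 74 were protein-coding with such a name and 72 reached that level, all of them among the 12263 genes that were tested. The 2 left out were the gene copies Mrpl41l1, at a mean of 0.31 TPM, and Mrpl42l1, listed at 0 in every library. The lowest member, Mrpl57, stood well above the limit at 5.03 TPM. The 72 genes hold 71 symbols, because Mrps17 stands at both of its loci. By their place in the ribosome 45 belong to the large subunit, Mrps18a and Mrps30 included, and 27 to the small subunit. By the classes used for ribosomal proteins 44 are homologues of a bacterial protein and 28 are mitochondria-specific. Mrps18a and Mrps18b are counted among the 28, although they are relatives of a bacterial protein whose direct counterpart is taken to be Mrps18c.

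The mitochondrial ribosome makes the few hydrophobic subunits of the respiratory chain and ATP synthase that mitochondrial DNA still encodes. Its RNAs come from that DNA, but all of its proteins are encoded in the nucleus, made in the cytosol and imported. The small subunit reads the mRNA, and the large subunit joins amino acids and feeds the new chain into the inner membrane. Heart muscle cells, rich in mitochondria, depend on it heavily.

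The cells were H9c2, a line grown from the heart of a rat embryo, and RNA was sequenced from polyadenylated transcripts with a strand-specific kit. The groups, with 3 libraries each, were MMA_FA (methylmalonic acid together with folic acid), MMA (methylmalonic acid, an acid that builds up when cobalamin-dependent propionate breakdown fails), FA (folic acid, the synthetic form of the vitamin folate) and Ctrl (given neither). The comparisons ask what each agent and the pair did to these transcripts and whether the pair did more or less than the agents added together. Doses, exposure times and the origin of the replicates are not stated, so p-values measure the spread between these samples, which may be technical.

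TPM keeps no depth, so the counting error behind a value is unknown. Libraries of 1 group correlated over all genes tested at r = 0.987 to 0.993, and no pair of libraries held identical values. The cells are labelled cardiomyocytes, and of the 8 cardiomyocyte markers in the table only Tnnt2, a thin-filament troponin, passed 1 TPM, with a mean of 38.9 TPM. Myh6, Myh7, Actn2, Ryr2, Nppa and Nppb had means of 0.01 to 0.0542 TPM. Of 7 skeletal myoblast genes 5 passed, among them Myod1 at 54.9 TPM and Myog at 17.4 TPM. The cardiomyocyte markers summed to 68.1 to 86.2 TPM in MMA_FA libraries, 21 to 23.7 TPM in MMA, 43.7 to 47.9 TPM in FA and 15.4 to 19.8 TPM in Ctrl, and the myoblast genes to 68.4 to 80.4 TPM in MMA_FA, 89.4 to 93.7 TPM in MMA, 91.5 to 104 TPM in FA and 103 to 113 TPM in Ctrl. Of 5 fibroblast and mesenchymal genes 3 passed, Col1a2 at 5110 TPM, Col1a1 at 2410 TPM and Thy1 at 161 TPM. Dcn and Pdgfra had means of 0.248 and 0.103 TPM. The 5 summed to 6950 to 8210 TPM in MMA_FA and 7020 to 7960 TPM in MMA. In FA they summed to 7940 to 9290 TPM, above Ctrl at 6720 to 7380 TPM without overlap. Endothelial, leukocyte and epithelial genes summed to at most 3.36 TPM in any library. The cardiomyocyte sums, made up mostly of Tnnt2, did not overlap between any of the 4 groups. The myoblast sums were lowest in MMA_FA, and FA overlapped MMA and Ctrl. The fibroblast sums of MMA_FA and MMA overlapped Ctrl. The part of these 3 lists in the results on ribosomal proteins was not tested. The median gene was lower by 0.12 on the log2(TPM + 1) scale in MMA_FA than in Ctrl. Calls are therefore given on the deposited values and on values scaled by the median ratio, where a library is divided by the median, over genes, of its ratio to the gene's geometric mean, so that the median gene is level.

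Upstream sequences are shown for the 4 members whose difference between MMA_FA and Ctrl stayed past the threshold under every setting tried: Mrpl51, Mrps31 and Mrpl49, which were lower, and Mrpl14, which was higher. Mrpl51, Mrps31 and Mrpl49 are mitochondria-specific proteins, of the large, small and large subunit in that order, and Mrpl14 is the homologue of a bacterial protein at the face where the subunits meet. Each sequence is the 250 bases before the annotated start, 5′ to 3′ on the gene's strand, from RefSeq on GRCr8, a later build than the one behind the TPM values. The windows are chr4:159677738-159677987 on the plus strand for Mrpl51, chr16:76324066-76324315 on the minus strand for Mrps31, chr1:212779328-212779577 on the minus strand for Mrpl49 and chr9:22811234-22811483 on the minus strand for Mrpl14, the first of its 2 annotated starts. Capitals mark exact matches, on either strand, to the CCAAT box (CCAAT, or ATTGG on the other strand) and to the ETS motif bound by GABP (CCGGAAG).
Mrpl51: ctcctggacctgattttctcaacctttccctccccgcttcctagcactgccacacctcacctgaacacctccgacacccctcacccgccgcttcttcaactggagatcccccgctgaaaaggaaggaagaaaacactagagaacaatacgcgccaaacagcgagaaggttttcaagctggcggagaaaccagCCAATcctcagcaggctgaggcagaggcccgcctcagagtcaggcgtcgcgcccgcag
Mrps31: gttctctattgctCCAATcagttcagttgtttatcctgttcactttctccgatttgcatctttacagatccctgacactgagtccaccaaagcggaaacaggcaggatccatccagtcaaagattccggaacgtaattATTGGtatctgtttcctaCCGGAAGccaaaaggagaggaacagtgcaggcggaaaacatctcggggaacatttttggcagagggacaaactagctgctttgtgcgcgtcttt
Mrpl49: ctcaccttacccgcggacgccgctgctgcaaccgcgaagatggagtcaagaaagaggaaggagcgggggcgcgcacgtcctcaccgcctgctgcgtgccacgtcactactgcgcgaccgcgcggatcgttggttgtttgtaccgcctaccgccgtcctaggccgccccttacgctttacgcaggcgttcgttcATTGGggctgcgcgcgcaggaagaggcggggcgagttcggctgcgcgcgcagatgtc
Mrpl14: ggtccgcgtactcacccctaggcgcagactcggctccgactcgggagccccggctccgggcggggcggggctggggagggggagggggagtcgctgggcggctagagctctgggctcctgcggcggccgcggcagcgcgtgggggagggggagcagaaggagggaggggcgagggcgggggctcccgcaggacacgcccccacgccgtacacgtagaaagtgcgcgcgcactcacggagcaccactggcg
Counted from the start, Mrps31 held the ETS motif at -94 and CCAAT boxes at -237 and -112. Mrpl51 and Mrpl49 each held a CCAAT box upstream, at -58 and -57, and the 250 bases shown for Mrpl14 held no match, while the window of its other start, not shown, held a CCAAT box at -49. GC content of the 250 bases was 58.4% for Mrpl51, 46.4% for Mrps31, 66.8% for Mrpl49 and 76.4% for Mrpl14.

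Across all 59 windows of 300 bases that matched 57 of the 71 member symbols (250 bases before to 50 after a start), the ETS motif stood in 19, or 32.2%, against 8.75% of all 33469 windows and 10.7% of the 21851 windows of protein-coding genes. The YY1 motif (AAGATGGCG) was in 8 of them, 13.6%, against 1.73% of all windows, and in 7 of the 8 it began at or after the start. The motif of NRF1, a regulator of nuclear genes for mitochondria (GCGCATGCG), was in the windows of Mrpl17, Mrpl22, Mrpl32, Mrpl44 and Mrps18b, 8.47% against 1.52% of all. Nuclear genes of the respiratory chain, with 69 windows, had shares of 29% for ETS, 14.5% for YY1 and 8.7% for NRF1. Cytosolic ribosomal protein genes, with 54 windows, had ETS in 33.3%, YY1 in 1.85% and NRF1 in none. Of the other motifs, the E-box CACGTG bound by MYC was in 10.2% of member windows against 6.42% of all, the CRE TGACGTCA bound by CREB in 1.69% against 1.83%, and the CCAAT box, a short motif that matches often, in 44.1% against 37.5%. A match is a run of letters and not evidence of binding, and matches of the same window can overlap.

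The members' mean levels ran over the 12 libraries from 5.03 to 181 TPM with a median of 40.5 TPM, against a median of 19.8 TPM for all genes tested. The highest were Mrpl23, which lines the end of the exit tunnel, at 181 TPM, Mrpl33 at 144 TPM, Mrpl43 at 141 TPM, Mrpl17 at 135 TPM and Mrps6 at 132 TPM. The lowest were Mrpl57 at 5.03 TPM, Mrpl34 at 5.76 TPM and Mrps28 at 12.1 TPM. Large-subunit genes had a median of 41.6 TPM and small-subunit genes one of 37.5 TPM, and the median was 38.7 TPM for genes with a bacterial homologue and 42.8 TPM for mitochondria-specific ones. On the same per-length scale the median was 132 TPM for nuclear subunits of the respiratory chain, 1165 TPM for cytosolic ribosomal proteins and 5849 TPM for mitochondrially encoded mRNAs. The 2 loci of Mrps17 had 25.8 and 13.9 TPM and may share reads, so their split is uncertain.

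Between libraries the members varied by less than the median gene. The SD of log2(TPM + 1) over the 12 libraries had a median of 0.0939 among members, against 0.128 among all genes tested and 0.121 among the 9195 genes in the members' range of mean TPM. The most variable member was Mrps18c, a small-subunit homologue of a bacterial protein, with an SD of 0.207, and the least variable was Mrpl43, a mitochondria-specific protein of the large subunit, with 0.0415. Mrpl43 had 143, 137 and 140 TPM in MMA_FA, 144, 140 and 148 TPM in MMA, 135, 142 and 135 TPM in FA and 139, 143 and 146 TPM in Ctrl, and the 4 groups overlapped. No member differed by more than 0.5 on the log2 scale in any comparison.

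Summed over the 72 members, the deposited values came to 3512, 3476 and 3465 TPM in MMA_FA, 3640, 3661 and 3614 TPM in MMA, 3445, 3560 and 3426 TPM in FA and 3634, 3657 and 3699 TPM in Ctrl, or 0.343% to 0.370% of each library. The 6 libraries with added folic acid lay at 3426 to 3560 TPM and the 6 without it at 3614 to 3699 TPM, with no overlap. Both subunits and the bacterial homologues were likewise apart, while the mitochondria-specific members overlapped, at 1297 to 1347 TPM with folic acid and 1341 to 1395 TPM without. The split was not particular to the members. The genes for assembly and rRNA modification, described below, were also apart, at 374.5 to 391.4 against 402 to 422.3 TPM. The sums of translation factors, tRNA charging genes, nuclear respiratory chain subunits and cytosolic ribosomal proteins overlapped. After median-ratio scaling that order was gone: MMA_FA summed to 3622, 3703 and 3565, above all Ctrl libraries at 3478, 3516 and 3514, while MMA stood at 3629, 3684 and 3707 and FA at 3417, 3530 and 3370. The direction of the sum between MMA_FA and Ctrl thus depended on the scaling, and no direction is given for the set. The mitochondrially encoded mRNAs, which share the same total, summed to 101361 to 110863 TPM in MMA_FA, 102653 to 114310 TPM in MMA, 87814 to 104463 TPM in FA and 93374 to 98687 TPM in Ctrl. With those genes taken out of the total, the member sum was 3756 to 3975 in the libraries with folic acid and 4017 to 4134 in those without. In RNA from a whole culture, fewer cells of a kind and less RNA per cell cannot be told apart.

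**Figure D1:**
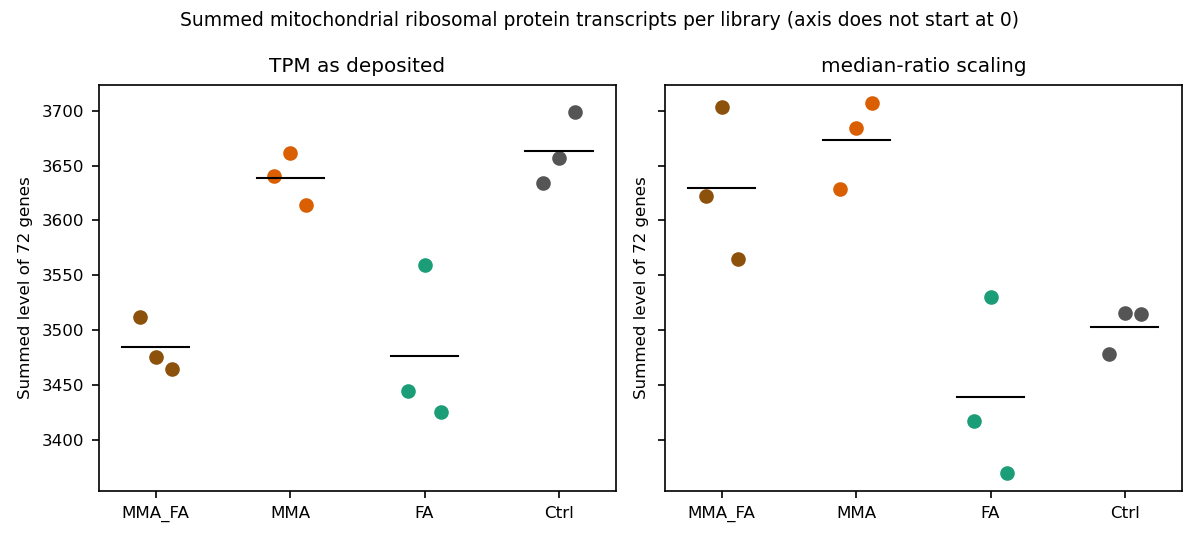
Summed level of the 72 mitochondrial ribosomal protein genes in each library, as deposited (left, TPM) and after scaling by the median ratio (right), in the groups MMA_FA, MMA, FA and Ctrl. Points are libraries, lines are means of 3, and the axis does not start at 0. The MMA_FA libraries lie below all Ctrl libraries on the left (3465 to 3512 against 3634 to 3699 TPM) and above them on the right (3565 to 3703 against 3478 to 3516).

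When the 4 groups were compared at once, 19 of the 72 members passed (limma F statistic, adjusted p under 0.05), or 26.4%, against 41% of all genes tested. That count was 12 without FA replicate 1 and 11 without MMA_FA replicate 2, MMA_FA replicate 3 or Ctrl replicate 3. The share was 24.4% in the large subunit, 29.6% in the small subunit, 25% among bacterial homologues and 28.6% among mitochondria-specific genes, each below that of all genes. Members had their highest group mean in MMA in 29 cases, in Ctrl in 28, in MMA_FA in 11 and in FA in 4. Their lowest group mean fell in FA in 32 cases, in MMA_FA in 21, in Ctrl in 12 and in MMA in 7. These counts are on the deposited scale and move with it. On that scale the median of all genes against Ctrl was -0.07 in MMA, -0.05 in FA and -0.12 in MMA_FA. The same counts over all genes were not made, so none is read as particular to the members.

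**Figure D2:**
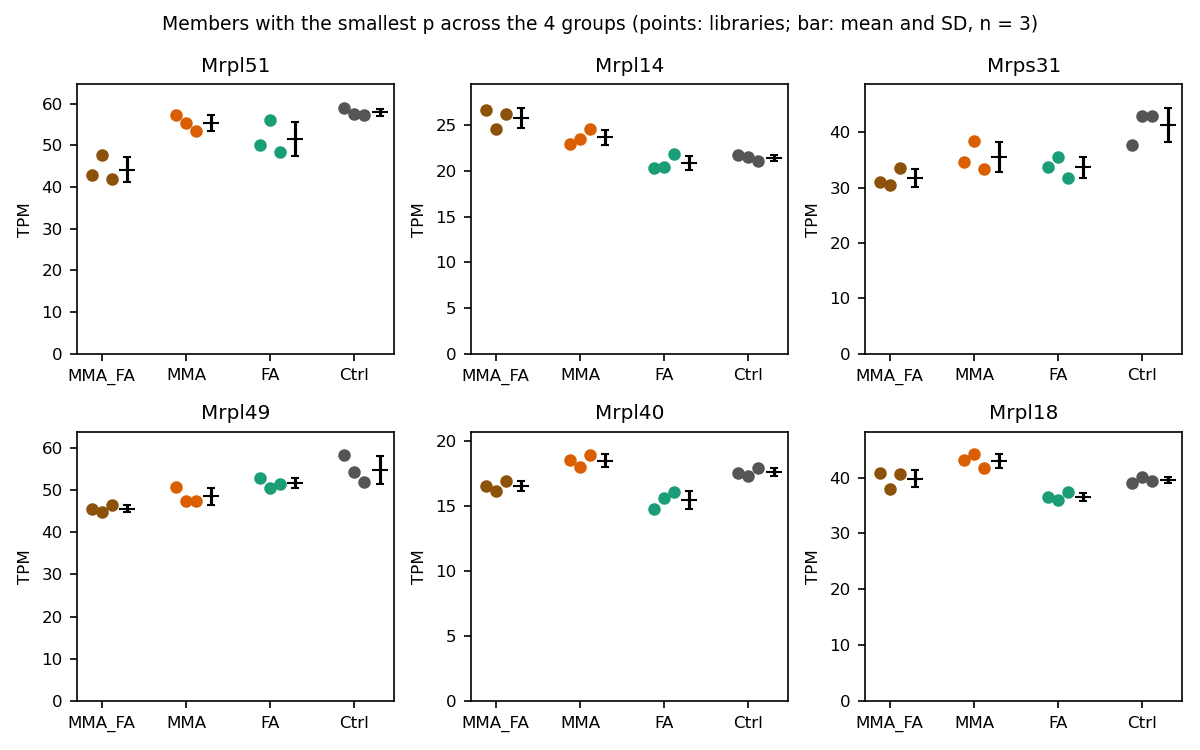
TPM as deposited of the 6 members with the smallest p across the groups. Points are libraries of MMA_FA, MMA, FA and Ctrl, and the bars beside them are the mean and SD of 3. Mrpl51 is lowest in MMA_FA (44.2 ± 3.04 TPM against 57.9 ± 0.881 TPM in Ctrl) and Mrpl14 highest there (25.8 ± 1.12 TPM against 21.4 ± 0.328 TPM in Ctrl).

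In cells given both agents, Mrpl51, Mrps31 and Mrpl49 were lower than in Ctrl and Mrpl14 was higher, by 0.26 to 0.39 on the log2 scale, while most members did not pass the test. In MMA_FA against Ctrl, 13 members were lower and 3 higher on the deposited values. That is 18.1% and 4.17% of the members, against 32.6% of all genes lower and 6.67% higher, so both shares were below the background. The members' median log2 difference was -0.03, against -0.12 for all genes, and 52 of the 72 lay above the median gene. After median-ratio scaling the split turned round: 17 members were higher and 3 lower, or 23.6% and 4.17%, against 15.5% and 13.9% of all genes, with a member median of 0.09. Past the threshold on both scales were Mrpl51, Mrps31 and Mrpl49 as lower and Mrpl14, Mrpl35 and Mrpl19 as higher. The other 14 that were higher only after scaling were Mrps12, Mrps7, Mrps34, Mrps11, Mrps23, Mrps18a, Mrpl44, Mrpl36, Mrpl39, Mrpl3, Mrpl28, Mrpl48, Mrpl23 and Mrpl18.

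**Figure D3:**
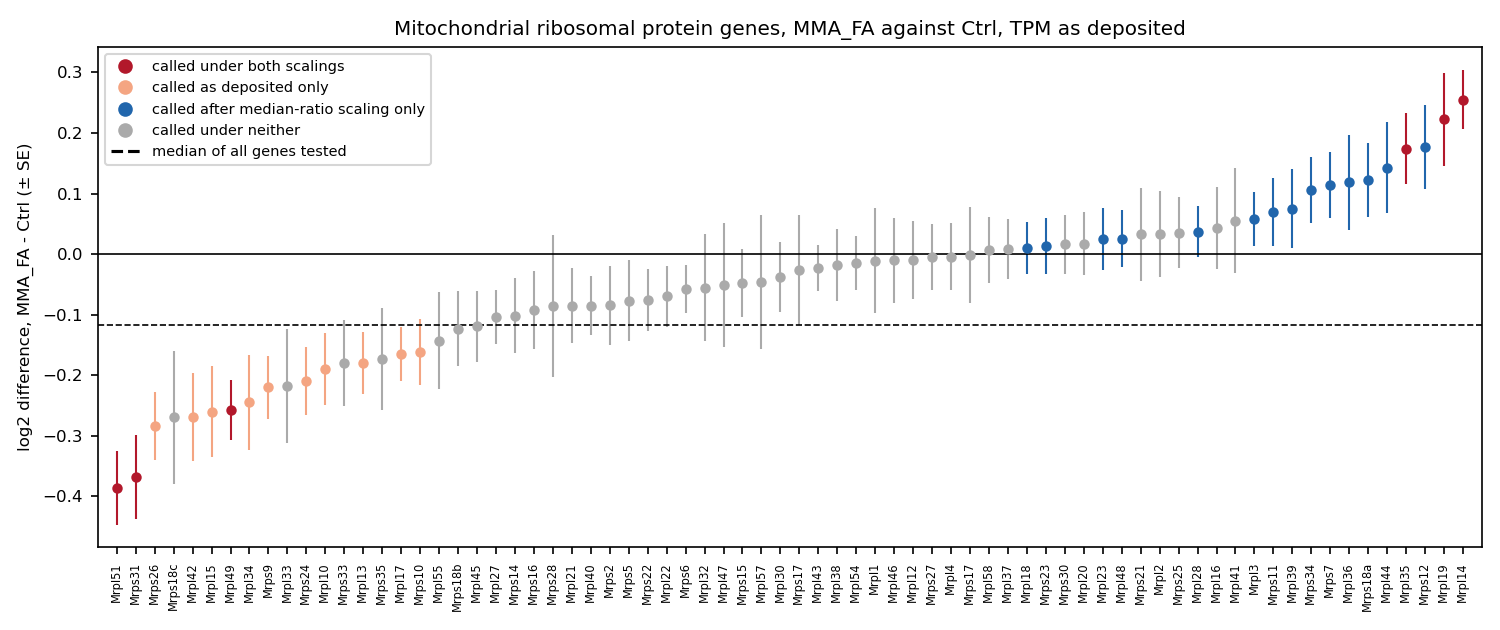
Log2 difference, MMA_FA minus Ctrl, of each of the 72 members on the deposited values, in rising order, with limma's standard error. Colours give whether the gene was called on both scales, on 1 of them or on neither, and the dashed line is the median of all genes at -0.12. The range runs from -0.39 for Mrpl51 to 0.26 for Mrpl14, and the genes called only after scaling lie from 0.01 to 0.18, above the dashed line.

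Among the large-subunit proteins Mrpl51 had the largest difference. It had 42.9, 47.6 and 42.0 TPM in MMA_FA, 57.3, 55.3 and 53.4 TPM in MMA, 50.1, 56.2 and 48.3 TPM in FA and 58.9, 57.6 and 57.3 TPM in Ctrl. Every MMA_FA library lay below every library of the other groups, and FA replicate 2 stood within the range of MMA. Between MMA_FA and Ctrl it fell by 0.39 ± 0.06 on the log2 scale (SE; limma, adjusted p = 0.000621), and by 0.26 after scaling (limma, adjusted p = 0.0106).

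Mrpl14, at the face toward the small subunit, rose. It had 26.7, 24.5 and 26.2 TPM in MMA_FA, 23.0, 23.5 and 24.6 TPM in MMA, 20.3, 20.4 and 21.8 TPM in FA and 21.7, 21.5 and 21.1 TPM in Ctrl. MMA_FA lay above FA and Ctrl in every library and overlapped MMA, whose own 3 libraries were all above Ctrl. The difference between MMA_FA and Ctrl was 0.26 ± 0.05 (limma, adjusted p = 0.00193) and 0.37 after scaling (limma, adjusted p = 0.000215).

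Mrpl49, the other mitochondria-specific protein of the large subunit called on both scales, had 45.6, 44.7 and 46.6 TPM in MMA_FA, 50.8, 47.5 and 47.3 TPM in MMA, 52.9, 50.6 and 51.3 TPM in FA and 58.4, 54.2 and 51.8 TPM in Ctrl. The MMA_FA libraries were below all others, and FA overlapped MMA and Ctrl. It fell by 0.26 ± 0.05 in MMA_FA against Ctrl (limma, adjusted p = 0.00184) and by 0.14 after scaling, close to the threshold (limma, adjusted p = 0.0482).

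Mrpl35 and Mrpl19, homologues of bacterial large-subunit proteins, were higher in MMA_FA on both scales but with larger p. Mrpl35 had 14.8, 15.0 and 15.6 TPM in MMA_FA against 12.9, 13.3 and 13.7 TPM in Ctrl, a difference of 0.17 ± 0.06 (limma, adjusted p = 0.0347). Mrpl19 had 29.9, 24.8 and 28.4 TPM in MMA_FA against 23.6, 22.7 and 24.3 TPM in Ctrl, a difference of 0.22 ± 0.08 (limma, adjusted p = 0.0359). Both groups were apart for each gene, yet with any 1 Ctrl library, MMA_FA replicate 1 or MMA_FA replicate 3 left out neither passed, and Mrpl35 was also lost without MMA_FA replicate 2 (adjusted p of 0.00358 to 0.107 for Mrpl35 and 0.0044 to 0.134 for Mrpl19 over all settings).

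The other large-subunit members lower in MMA_FA on the deposited values were Mrpl42, Mrpl17, Mrpl13, Mrpl15, Mrpl10 and Mrpl34, and none of the 6 passed after scaling. Mrpl17, near the tunnel through which the new chain leaves, had 131, 122 and 123 TPM in MMA_FA against 135, 143 and 143 TPM in Ctrl and fell by 0.16 ± 0.04 (limma, adjusted p = 0.0118), but its scaled difference was -0.04 (limma, adjusted p = 0.506). Mrpl42, a mitochondria-specific protein, had 54.5, 55.2 and 59.1 TPM in MMA_FA against 70.1, 62.0 and 72.3 TPM in Ctrl and fell by 0.27 ± 0.07 (limma, adjusted p = 0.0117), with -0.15 after scaling (limma, adjusted p = 0.125). Its call was also lost without Ctrl replicate 3, over a range of adjusted p from 0.00633 to 0.125.

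In the small subunit Mrps31, a mitochondria-specific protein, had 31.1, 30.5 and 33.6 TPM in MMA_FA, 34.7, 38.5 and 33.4 TPM in MMA, 33.7, 35.5 and 31.8 TPM in FA and 37.8, 43.0 and 43.0 TPM in Ctrl. All MMA_FA and FA libraries were below all Ctrl libraries, and MMA replicate 2 reached above the lowest of Ctrl. In MMA_FA against Ctrl it fell by 0.37 ± 0.07 (limma, adjusted p = 0.00161) and by 0.25 after scaling (limma, adjusted p = 0.0153). Mrps26, also mitochondria-specific, had 69.4, 70.5 and 61.2 TPM in MMA_FA against 82.3, 81.6 and 81.1 TPM in Ctrl and fell by 0.28 ± 0.06 (limma, adjusted p = 0.00221), and after scaling it missed the threshold at -0.16 (limma, adjusted p = 0.0603).

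The 3 homologues of bacterial small-subunit proteins lower on the deposited values alone were Mrps9, Mrps24 and Mrps10, all in the head of that subunit. Mrps9 had 53.1, 50.9 and 49.9 TPM in MMA_FA against 55.9, 60.0 and 64.2 TPM in Ctrl, a difference of -0.22 ± 0.05 (limma, adjusted p = 0.00571), and -0.10 after scaling (limma, adjusted p = 0.172). Mrps24 had 96.8, 86.3 and 85.3 TPM in MMA_FA against 103, 98.1 and 109 TPM in Ctrl, a difference of -0.21 ± 0.06 (limma, adjusted p = 0.0116), lost without Ctrl replicate 3 and after scaling (adjusted p up to 0.254). No small-subunit member was higher on the deposited values, while 5 were after scaling. Among these was Mrps12, part of the decoding centre, at 0.18 ± 0.07 as deposited (limma, adjusted p = 0.062) and 0.30 scaled (limma, adjusted p = 0.00623).

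In MMA against Ctrl, 3 members were lower and none higher on the deposited values, 4.17% and 0%, against 16.5% of all genes lower and 3.85% higher. At an unadjusted p under 0.05 there were 11 members, or 15.3%, against 36% of all genes. The 3 were Mrpl49, Mrpl38 and Mrps31, all mitochondria-specific. Mrpl38, near the central protuberance of the large subunit, had 22.7, 22.8 and 23.3 TPM in MMA against 27.2, 27.1 and 25.2 TPM in Ctrl, without overlap, and fell by 0.20 ± 0.06 (limma, adjusted p = 0.0329). Mrpl49 fell by 0.17 ± 0.05 (limma, adjusted p = 0.0309) and Mrps31 by 0.21 ± 0.07 (limma, adjusted p = 0.0495). None of the 3 passed after scaling (adjusted p of 0.157 to 0.202), where 8 members were higher and none lower, 11.1% and 0%, against 8.16% and 6.91% of all genes. The 8 were Mrpl18, Mrpl14, Mrpl28, Mrpl19, Mrpl23, Mrps12, Mrps30 and Mrps34. Mrpl18 is the homologue of a bacterial protein that binds an RNA in the central protuberance, and stood at 0.19 scaled (limma, adjusted p = 0.00745) and 0.12 ± 0.04 as deposited (limma, adjusted p = 0.0675), and Mrpl14 stood at 0.21 scaled (limma, adjusted p = 0.0141). The count of 3 was 1 without MMA replicate 1, MMA replicate 2, Ctrl replicate 1 or Ctrl replicate 2, and 0 without MMA replicate 3. Without Ctrl replicate 2 none of the named 3 passed, so the 1 counted there was another member. Mrps31 was lost in 12 of 19 settings, among them those without FA replicate 1, MMA_FA replicate 1 or MMA_FA replicate 2.

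In FA against Ctrl, 4 members were lower and none higher on the deposited values, 5.56% and 0%, against 8.7% and 3.67% of all genes, and 22 members, or 30.6%, had an unadjusted p under 0.05, against 31.1% of all genes. Mrps31 fell by 0.29 ± 0.07 (limma, adjusted p = 0.0238) and was the only one of the 4 also past the threshold after scaling, at -0.24 (limma, adjusted p = 0.0436). Mrpl40, a mitochondria-specific neighbour of Mrpl38, had 14.7, 15.6 and 16.0 TPM in FA against 17.5, 17.3 and 17.9 TPM in Ctrl and fell by 0.18 ± 0.05 (limma, adjusted p = 0.0344). Mrps18b, a small-subunit protein, had 32.6, 34.9 and 33.4 TPM in FA against 42.9, 37.7 and 39.0 TPM in Ctrl and fell by 0.24 ± 0.06 (limma, adjusted p = 0.0294).

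Its relative Mrps18c had 26.6, 29.4 and 23.0 TPM in FA against 29.5, 40.5 and 33.9 TPM in Ctrl, a wide spread, and fell by 0.38 ± 0.11 (limma, adjusted p = 0.0426). The large-subunit relative, Mrps18a, had 54.7, 55.3 and 63.1 TPM in FA against 55.4, 54.5 and 53.1 TPM in Ctrl, which overlapped. The 4 calls depended on single libraries: the count was 14 without FA replicate 2, the FA library nearest to Ctrl in the sum, 0 without FA replicate 1 or Ctrl replicate 3, 1 without FA replicate 3 or Ctrl replicate 2, and 2 without MMA replicate 1 or Ctrl replicate 1. After scaling 2 members were higher, against 5.78% of all genes, and 1 lower, against 3.88%. The 2 were Mrps34, at 0.22 (limma, adjusted p = 0.0283), and Mrpl19, at 0.28 (limma, adjusted p = 0.0328).

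In MMA_FA against MMA, which share methylmalonic acid, 7 members were lower and none higher on the deposited values, 9.72% and 0%, against 9.53% and 4.19% of all genes. The lower share was thus near the background. Mrpl51 fell by 0.32 ± 0.06 (limma, adjusted p = 0.0048), and this call held under every setting tried. Mrps10 had 16.2, 15.7 and 15.2 TPM in MMA_FA against 19.2, 18.8 and 17.9 TPM in MMA and fell by 0.23 ± 0.05 (limma, adjusted p = 0.0146). Both genes also passed after scaling, but Mrps10 was lost without MMA replicate 1, MMA replicate 2 or MMA_FA replicate 3 (limma, adjusted p of 0.0127 to 0.067 over all settings). The other 5 were Mrps24, Mrps26, Mrpl34, Mrps9 and Mrpl17, with differences of -0.27 to -0.15 and adjusted p of 0.0275 to 0.0447 in limma, none past the threshold after scaling. Each of the 5 was lost when any 1 MMA library was left out, and the count of 7 was 1 without MMA replicate 1, MMA replicate 2 or MMA_FA replicate 3, 2 without MMA replicate 3, 3 without MMA_FA replicate 2 and 4 without Ctrl replicate 2. After scaling 2 members were higher and 2 lower, against 6.39% and 6.19% of all genes, the higher ones being Mrpl38 at 0.23 (limma, adjusted p = 0.0221) and Mrpl14 at 0.16 (limma, adjusted p = 0.0438).

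In MMA_FA against FA, which share folic acid, 2 members were higher and 3 lower on the deposited values, 2.78% and 4.17%, against 1.6% and 8.9% of all genes. Mrpl14 rose by 0.29 ± 0.05 (limma, adjusted p = 0.00827) and Mrpl35 by 0.25 ± 0.06 (limma, adjusted p = 0.0252), both also past the threshold after scaling. Mrps9 fell by 0.19 ± 0.05 (limma, adjusted p = 0.0399), Mrpl51 by 0.22 ± 0.06 (limma, adjusted p = 0.0429) and Mrpl49 by 0.17 ± 0.05 (limma, adjusted p = 0.0444), all lost after scaling, with adjusted p up to 0.22. The call of Mrpl14 held with each library left out, but it was lost when only the MMA_FA and FA libraries were fitted (limma, adjusted p = 0.0926, with 0.00427 to 0.0926 over all settings). The call of Mrpl35 was lost without FA replicate 1, FA replicate 3, MMA_FA replicate 2 or MMA_FA replicate 3 (adjusted p up to 0.127). The count of 3 lower was 0 without MMA replicate 1, MMA replicate 2, FA replicate 1, MMA_FA replicate 3 or Ctrl replicate 2, and 1 without FA replicate 3, MMA_FA replicate 1 or MMA_FA replicate 2. After scaling 4 members were higher and none lower, against 3.43% and 2.46% of all genes: Mrpl14, Mrpl35, Mrpl18 and Mrps21. The comparisons against Ctrl share the Ctrl libraries and those of MMA_FA share the MMA_FA libraries, so they are not independent of each other.

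**Figure D4:**
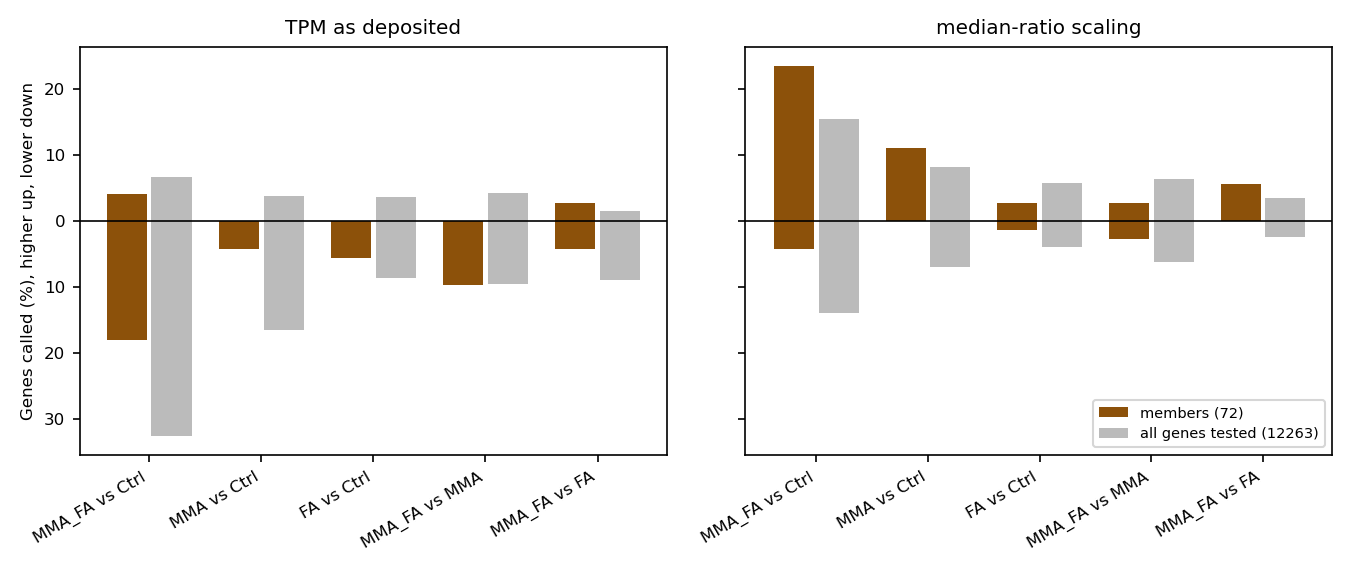
Share of genes called higher (up) and lower (down) in each comparison among the 72 members (brown) and all 12263 genes tested (grey), as deposited (left) and after scaling by the median ratio (right). In MMA_FA against Ctrl the members stand at 4.17% higher and 18.1% lower on the left, and at 23.6% and 4.17% on the right.

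The interaction asks whether the pair differed from the sum of the agents' separate differences. No member passed in either direction on either scale (limma), against 0.938% of all genes above and 1.47% below 0 on the deposited values and 1.04% and 1.62% on the scaled ones, and 8 members, or 11.1%, had an unadjusted p under 0.05, against 17.6% of all genes. The smallest p was that of Mrps21, the homologue of a bacterial small-subunit protein, with 50.1, 46.4 and 48.6 TPM in MMA_FA, 48.1, 40.4 and 41.9 TPM in MMA, 41.4, 44.5 and 36.6 TPM in FA and 46.0, 49.8 and 46.0 TPM in Ctrl. MMA_FA and Ctrl overlapped near the top, FA lay below both, and MMA spanned the gap. Its interaction was 0.36 ± 0.11 (limma, adjusted p = 0.103). Mrpl51 had an interaction of -0.15 ± 0.09 (limma, adjusted p = 0.395) and Mrpl14 one of 0.16 ± 0.07 (limma, adjusted p = 0.267), and a p above the threshold does not show that the agents acted additively.

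Mrpl40 and Mrpl18, both in the central protuberance of the large subunit, were highest in MMA and lowest in FA. Mrpl40 had 16.6, 16.1 and 16.9 TPM in MMA_FA, 18.5, 18.0 and 18.9 TPM in MMA, 14.7, 15.6 and 16.0 TPM in FA and 17.5, 17.3 and 17.9 TPM in Ctrl. MMA was the top group in all libraries, above Ctrl, and FA lay at the bottom without overlap. Mrpl18 had 40.8, 38.0 and 40.7 TPM in MMA_FA, 43.1, 44.2 and 41.8 TPM in MMA, 36.5, 35.98 and 37.4 TPM in FA and 39.1, 40.2 and 39.4 TPM in Ctrl, with MMA again above all other libraries and FA below them, and MMA_FA overlapping Ctrl. Across the groups the adjusted p was 0.00868 for Mrpl40 and 0.00936 for Mrpl18 (limma).

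Proteins of the same ribosome that the selection rule leaves out were looked at beside the members. Of 4 subunits with other names, Ptcd3, a pentatricopeptide repeat protein of the small subunit, was lower in MMA_FA than in Ctrl by 0.30 ± 0.08 (limma, adjusted p = 0.00973), with 32.2, 32.1 and 32.0 TPM in MMA_FA against 39.6, 37.4 and 42.1 TPM in Ctrl, and it was lost after scaling (limma, adjusted p = 0.0948). Ptcd3 as deposited is 1 of 4, or 25%, against 32.6% of all genes lower. Dap3, the GTP-binding protein of the small subunit, Chchd1 and Gadd45gip1 had means of 56.6, 76.8 and 44.1 TPM. They passed in no comparison on the deposited values. After scaling Gadd45gip1, near the exit tunnel, was higher in MMA_FA than in Ctrl, at 0.18 (limma, adjusted p = 0.0289). That is again 1 of 4, or 25%, against 15.5% of all genes higher. The large-subunit gene mrpl24, written in lower case in the table and so not among the 72, had 16.2, 15.5 and 16.7 TPM in MMA_FA, 17.6, 18.0 and 19.0 TPM in MMA, 17.2, 18.1 and 18.2 TPM in FA and 21.4, 20.8 and 22.2 TPM in Ctrl. All libraries of the treated groups were below all Ctrl libraries. It fell in MMA_FA by 0.39 ± 0.05 (limma, adjusted p = 0.000199) and by 0.28 after scaling (limma, adjusted p = 0.00169), in MMA by 0.23 ± 0.05 (limma, adjusted p = 0.0104) and in FA by 0.26 ± 0.05 (limma, adjusted p = 0.0124). After scaling the call in MMA was lost, at -0.15 (limma, adjusted p = 0.0556), and that in FA held, at -0.21 (limma, adjusted p = 0.0244). The gene mrpl24 was singled out after its values were seen, from 4 subunits that the selection rule misses. It misses mrpl9, mrpl11 and mrpl24 by their lower-case symbols, and Mrpl52 because that gene is listed as a long noncoding RNA. Of these 4, 2 were lower in MMA_FA than in Ctrl, 50% against 32.6% of all genes. After scaling 1 was lower, 25% against 13.9%. The other call as deposited was Mrpl52, at -0.22 ± 0.07 (limma, adjusted p = 0.0246), lost after scaling (limma, adjusted p = 0.308). In no comparison did mrpl9 or mrpl11 pass.

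Other genes of mitochondrial translation were measured in the same libraries. Of 17 genes listed as translation factors 7 were lower in MMA_FA than in Ctrl and none higher. These are 41.2% and 0%, against 32.6% and 6.67% of all genes, with a median of -0.16 against -0.12. After scaling 2 were lower and 1 higher, 11.8% and 5.88%, against 13.9% and 15.5% of all genes. The 2 lower on both scales were Gfm2 and Mtrf1. On the deposited values Gfm2, a GTPase that splits used ribosomes, fell by 0.32 ± 0.06 (limma, adjusted p = 0.00152) and Mtrf1, a release factor, by 0.37 ± 0.07 (limma, adjusted p = 0.00208). Of 23 genes for assembly and rRNA modification 5 were lower and none higher, a lower share of 21.7%, below the 32.6% of all genes, led by Mettl15, a methyltransferase of the small-subunit rRNA, at -0.33 ± 0.08 (limma, adjusted p = 0.00814), and Tfb1m, which dimethylates the same rRNA, at -0.39 ± 0.10 (limma, adjusted p = 0.00925). After scaling 1 of the 23 was lower and 3 higher, 4.35% and 13%, against 13.9% and 15.5% of all genes. The 1 lower was Mettl15, at -0.25 (limma, adjusted p = 0.0362), while Tfb1m did not pass, at -0.27 (limma, adjusted p = 0.0671). Of 19 mitochondrial tRNA charging genes 3 were lower and none higher, 15.8% against the same 32.6%, led by the glutamyl-tRNA synthetase gene Ears2 with 4.21, 4.18 and 4.02 TPM in MMA_FA against 6, 6.4 and 5.48 TPM in Ctrl, a difference of -0.44 ± 0.08 (limma, adjusted p = 0.00129), which held after scaling (limma, adjusted p = 0.00819).

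Values for the mRNAs that these ribosomes translate are set beside the members. Of 13 mitochondrially encoded mRNAs 6 were higher in MMA_FA than in Ctrl and none lower, with a median of 0.26, and after scaling 9 were higher. These are 46.2% as deposited, against 6.67% of all genes, and 69.2% scaled, against 15.5%. Mt-nd3, a subunit of complex I, rose by 0.51 ± 0.06 (limma, adjusted p = 0.00012) and Mt-nd1 by 0.38 ± 0.07 (limma, adjusted p = 0.00109). In MMA against Ctrl 6 were higher, or 46.2% against 3.85% of all genes, with a median of 0.25. In FA against Ctrl 1 was higher, Mt-nd3, or 7.69% against 3.67% of all genes, with a median of -0.03.

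Set beside the most alike groups in MMA_FA against Ctrl, nuclear respiratory chain subunits had 7 of 81 higher and 6 lower on the deposited values, 8.64% and 7.41%, against 6.67% and 32.6% of all genes. After scaling 24 were higher and 1 lower, 29.6% and 1.23%, against 15.5% and 13.9% of all genes. Cytosolic ribosomal proteins had 15 of 63 higher and 3 lower on the deposited values, 23.8% and 4.76%, and 32 higher and none lower after scaling, 50.8% and 0%, against the same shares of all genes. The medians as deposited were -0.02 for the respiratory chain, 0.04 for cytosolic ribosomal proteins and -0.03 for the mitochondrial ribosomal proteins, each above the -0.12 of all genes. The differences between these groups were not tested.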

How the data were processed

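RNA from 12 libraries was sequenced, 3 in each of 4 groups. Extraction with TRIzol and the Illumina Stranded mRNA Prep kit are named per the labels' protocols, and fastp, HISAT2 and the rat build mRatBN7.2 per the submitters' processing notes. The authors deposited gene-level TPM, which the table's title credits to RSEM. Versions, annotation and strand setting are not stated, so reads of overlapping or near-identical genes may be split or shared. All sample columns were used.

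From these, log2(TPM + 1) was fitted for the 12263 genes whose mean reached 1 TPM, in limma 3.58.1 (in R 4.3.3, reading the table through data.table, version 1.17.8). The model had 4 group means and let the variance follow the mean. The residual degrees of freedom were 8 and limma's prior degrees 4.317. Benjamini-Hochberg adjustment ran over all 12263 genes, and a gene was called at an adjusted p under 0.05. TPM gives no depth and hence no counting interval. The code was tested on simulated data. The members and gene lists were chosen with earlier results of these data known, so sums over the members are given without a test. Members shown in every library are the 6 with the smallest p across the groups and, beyond that rule, others that a sentence compares. Those given with a difference are called members, up to 8 a direction by smallest p, and the other lists were named likewise, up to 4. Some were named after their values were seen. Motif matches were counted in Python 3.11.15 in RefSeq windows, which were found for 57 of 71 symbols, and plots were drawn with matplotlib 3.10.9. Alternatives were scaling by the median ratio, TPM without mitochondrially encoded genes, a pseudocount of 0.1 and no filter. Others were a replicate block, a fit of only the groups compared and each library left out. A further one, added after the data were seen, was the members plus 4 subunits that the selection rule misses.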

Additional observations from a re-analysis of the deposited data

How the results depend on the processing

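Of 30 named calls of members, 5 held under all 19 alternatives: Mrpl14, Mrpl51, Mrps31 and Mrpl49 in MMA_FA against Ctrl and Mrpl51 in MMA_FA against MMA. The other 25 were lost in at least 1, 19 of them with median-ratio scaling, and none changed sign. The counts below are members higher, then lower, and the cause of each change was not tested unless the setting itself gives it. Shares of all genes under these settings are not given, except those for median-ratio scaling above. No change is therefore read as particular to the members.

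With median-ratio scaling the counts were 8 and 0 in MMA against Ctrl, 2 and 1 in FA against Ctrl, 17 and 3 in MMA_FA against Ctrl, 2 and 2 in MMA_FA against MMA, and 4 and 0 in MMA_FA against FA. Without mitochondrially encoded genes 3 were higher in MMA against Ctrl, 1 was higher in MMA_FA against MMA and 0 were lower in MMA_FA against FA. With no filter on mean TPM, 1 was lower in MMA against Ctrl, 2 in FA against Ctrl, 2 in MMA_FA against MMA and 0 in MMA_FA against FA, 1 was higher in MMA_FA against Ctrl, and 12 differed across the 4 groups. In fits of only the groups compared, with fewer samples, the counts were 1 and 1 in MMA against Ctrl, 1 and 0 in FA against Ctrl, and 0 and 0 in MMA_FA against FA, with 5 higher in MMA_FA against Ctrl and 1 higher in MMA_FA against MMA. A pseudocount of 0.1 and the addition of 4 subunits outside the selection rule moved no count by more than 1.5 times.

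The replicate numbers gave no sign of pairing. Each library's deviations from its group mean, over all genes tested, were correlated between the 18 same-numbered pairs. These r values were -0.124 to 0.107, and 1 exceeded 0.1. Whether same-numbered libraries shared a culture or day is not stated, and the values do not settle it. With the replicate number as a block 1 member was higher in MMA_FA against Ctrl and 4 were lower in MMA_FA against MMA.

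With each library left out in turn, members higher ranged from 0 to 1 and lower from 0 to 3 in MMA against Ctrl, 0 to 1 and 0 to 14 in FA against Ctrl, 1 to 4 and 9 to 15 in MMA_FA against Ctrl, 0 to 1 and 1 to 8 in MMA_FA against MMA, 1 to 3 and 0 to 3 in MMA_FA against FA, and 0 to 1 and 0 to 0 for the interaction. Across the 4 groups 11 to 25 members differed.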

Other observations

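Oxa1l, the insertase at the exit of the mitochondrial ribosome, was listed with the translation factors. Of those 17 genes it alone had an interaction past the threshold, below 0. That is 5.88% on either scale, against 1.47% of all genes as deposited and 1.62% scaled. Oxa1l had 51.5, 48.2 and 50.8 TPM in MMA_FA, 55.2, 56.2 and 61.3 TPM in MMA, 56.4, 58.3 and 57.8 TPM in FA and 52.8, 50.4 and 54.4 TPM in Ctrl. MMA and FA lay above Ctrl while MMA_FA overlapped it, and the interaction was -0.32 ± 0.07 on the log2(TPM + 1) scale (SE; limma, adjusted p = 0.0334), with -0.33 after median-ratio scaling (limma, adjusted p = 0.0315).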
